A study of Mus musculus with 24 samples.

Results

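The macrophage-selective positions are 49 of the 513 usable positions of a nylon array of cytokine-related mouse cDNAs, or 9.55%, and they were chosen by their higher level in peritoneal macrophages than in splenic CD4+ T cells. A position was a member when its mean log2 level over the 6 macrophage arrays exceeded its mean over the 6 CD4+ T-cell arrays by 1 or more, which is a 2-fold difference. Level here is the spot intensity divided by the mean intensity of the same array. Of the 531 positions listed, 16 were left out because at least 1 CD4+ T-cell array had no value above 0, and C3U and A24L were left out because both carry the same intensities in every CD4+ T-cell column.

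Depleted uranium (DU), uranium with a lowered content of its fissile isotope, was given to the cells as uranyl nitrate, a soluble salt. The study asked how a noncytotoxic DU exposure changes cytokine-related gene expression in the 2 cell types. The first group held thioglycollate-elicited peritoneal macrophages of BALB/c mice cultured for 24 hr without DU, and the second held the same cells with 50 μM DU. The third group held splenic CD4+ T cells of DO11.10 mice, which carry a transgenic T-cell receptor, kept for 24 hr without DU in anti-CD3-coated wells, and the fourth held the same cells with 100 μM DU. Each group had 3 experiments, the cells of each experiment were pooled from several mice, and all 6 CD4+ T-cell cultures had the anti-CD3 stimulus. Cell type was therefore joined to mouse strain, culture and dose, and these cannot be told apart in any difference between the cell types.

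Macrophages are phagocytes that sense microbial products and release chemokines and inflammatory cytokines, and thioglycollate draws newly recruited macrophages into the peritoneum. CD4+ T cells engaged through CD3 instead make growth factors and cytokines that direct other lymphocytes. Arrays of cytokine-related cDNAs carry ligands, receptors and signaling genes of both kinds of cell. The positions are named only by their place on the membrane (row letter, column number, and U or L), and no table used here pairs them with genes. No role, pathway or sequence can therefore be given for any member, the cell type labels could not be checked against marker genes, and some positions may be control spots. In cultures of this kind, fewer cells of a type and less RNA per cell cannot be told apart.

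The macrophage level of the members exceeded their CD4+ T-cell level by a median of 1.46 on the log2 scale, or 2.75-fold, with a lowest value of 1.06 and a highest of 7.46, the latter measured near the lowest CD4+ T-cell intensities. These values chose the members and are given as a description, without a test. The difference was 2 or more for 14 members, 3 or more for 7 and 4 or more for 5. At 46 of the 49, the lowest of the 6 macrophage arrays lay above the highest of the 6 CD4+ T-cell arrays, as at 11.1% of all usable positions. This separation follows from the choice of members. Over all 513 usable positions the median difference was -0.34, and 91 positions were lower in macrophages by 1 or more. Taken on the control arrays alone, 47 of the 49 differed by 1 or more, and on the DU arrays alone 43 did. On intensities not divided by the array mean, all 49 were still higher in macrophages, but only 16 by 1 or more.

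**Figure D1:**
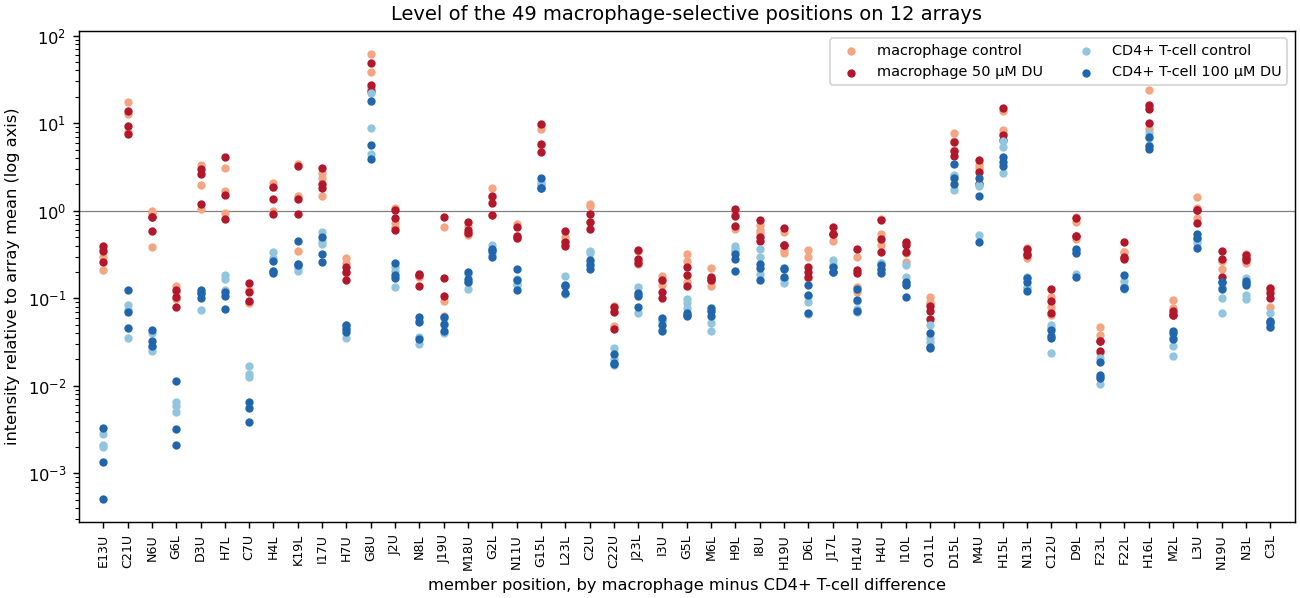
Level of each of the 49 macrophage-selective positions on the 12 arrays, as intensity divided by the array mean (log axis), ordered by the difference between the cell types. The macrophage points lie above the CD4+ T-cell points at 46 of the 49 positions, which were chosen on this difference (11.1% of all usable positions), and the first 5 positions differ by 4 or more on the log2 scale.

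The largest differences were those of E13U, C21U, N6U, G6L and D3U. C21U combined a high macrophage level with a low CD4+ T-cell level. Its level was 17.4, 12.7 and 7.87 times the array mean in the control macrophages of experiments 1, 2 and 3 and 13.8, 9.27 and 7.49 after DU. In CD4+ T cells it was 0.0844, 0.0741 and 0.0348 without DU and 0.124, 0.0692 and 0.0461 with it. The lowest macrophage array was thus far above every CD4+ T-cell array, and the mean log2 difference was 7.36, or 164-fold.

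E13U had a measured difference of 7.46 on the log2 scale, and this value rests on CD4+ T-cell spots near 0. Its macrophage level was 0.297, 0.212 and 0.363 times the array mean without DU and 0.400, 0.261 and 0.344 with DU. In the CD4+ T-cell controls the duplicate spots had intensities of 511 and 1804 in experiment 1, 1063 and 0 in experiment 2, and 831 and 571 in experiment 3. After DU they were 1292 and 0, then 83 and 1098, then 160 and 655. The macrophage spots of E13U ranged from 25390 to 150865. The 2 spots at 0 were treated as missing, so the arrays concerned are represented by 1 spot each. With each CD4+ T-cell array set to the higher of E13U's own level and the lowest intensity of the array, the difference was 7.14, or 141-fold. That value is below the difference of C21U and the measured one is above it, so their order depended on this choice.

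N6U, G6L and D3U differed by 4.50, 4.45 and 4.24 on the log2 scale. N6U lay between 0.381 and 0.991 times the array mean on the macrophage arrays and between 0.0249 and 0.0431 on the CD4+ T-cell arrays. G6L lay between 0.0792 and 0.139 in macrophages and between 0.0021 and 0.0114 in CD4+ T cells. D3U lay between 1.04 and 3.33 in macrophages and between 0.0738 and 0.123 in CD4+ T cells. At each of these positions the ranges of the cell types, relative to the array mean, were far apart. G6L, however, lay near the lower end of the arrays in both cell types. Its median was 3.59 times the lowest intensity of the array in macrophages and 3.06 times in CD4+ T cells. The part of the different lower ends in its difference was not tested.

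At the edge of the rule the members shaded into the rest of the array. The members with the smallest differences were C3L at 1.06, N3L at 1.09 and N19U at 1.10. The nearest positions outside were I2U at 0.99, J23U at 0.98 and H15U at 0.97. C3L lay between 0.0798 and 0.131 times the array mean in macrophages and between 0.0465 and 0.0679 in CD4+ T cells, and I2U, just outside, lay between 0.205 and 0.327 and between 0.102 and 0.207. The ranges of I2U overlapped where those of C3L did not, although the mean differences were nearly equal.

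The arrays of the cell types had different lower ends, and this moves with the difference that chose the members. The lowest intensity above 0 of a column, 1 for each duplicate spot, was 1.90 to 4.55% of the column mean on the macrophage arrays and 0.0141 to 0.785% on the CD4+ T-cell arrays. No macrophage spot was at 0, while 17 positions had a 0 in a CD4+ T-cell column. The median macrophage level was under 3 times the lowest intensity of its array, averaged over the 2 columns, at 5 members, F23L, C22U, O11L, M2L and C12U, which were chosen for that after their values were seen, and at 61 of all 513 usable positions. With the lowest intensity subtracted from each column first, 41 positions met the rule. The part of the different lower ends in the choice of members was otherwise not tested.

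**Figure D2:**
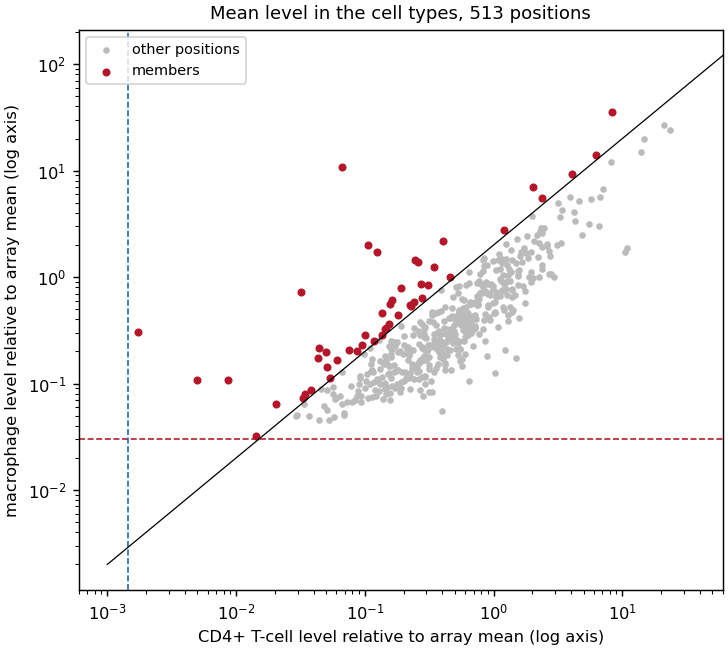
Mean level on the macrophage arrays against mean level on the CD4+ T-cell arrays for the 513 usable positions, both relative to the array mean on log axes. The black line marks a 2-fold difference, above which the 49 members lie, and the dashed lines mark the average lowest intensity of the macrophage arrays (horizontal) and of the CD4+ T-cell arrays (vertical). E13U lies close to the vertical line and F23L close to the horizontal one.

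The members were spread over 13 rows of the membrane, with 9 of 39 usable positions in row H, 6 of 28 in row C and 6 of 33 in row N. There were 23 members among 258 U positions and 26 among 255 L positions. No usable position lay in column 24, which held 13 of the 16 positions left out for values of 0. Those 16 had macrophage levels between 0.0331 and 2.48 times the array mean, with P24L the highest, and none of them lacked a value on all 6 CD4+ T-cell arrays. With zeros set instead to the lowest intensity of the column, 65 positions met the rule, the 49 members among them.

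The summed intensity of the members was a smaller share of the array's intensity on the DU array than on the control array of every experiment, by amounts that differed widely. In control macrophages they held 26.3, 25.6 and 17.0% of the summed intensity in experiments 1, 2 and 3, and 21.7, 21.7 and 16.4% after DU. The means were 23.0% ± 5.19 and 19.9% ± 3.05 (SD, n = 3). On the CD4+ T-cell arrays the share was 4.75, 6.59 and 8.96% without DU and 4.72, 5.22 and 7.51% with it, with means of 6.76% ± 2.11 and 5.82% ± 1.49 (SD, n = 3). The control and DU values overlapped in both cell types. In experiment 1 of the CD4+ T cells the shares were nearly equal, and there the members other than G8U and C21U held 3.90% without DU and 3.96% with it. No test was made on this sum, because the members were chosen with results known.

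A single position, G8U, made up a large part of that share and was singled out after its values were seen. G8U held 7.20, 11.8 and 4.73% of the intensity of the control macrophage arrays and 5.20, 9.24 and 4.38% of the DU arrays. Its level was 38.2, 62.4 and 25.1 times the array mean without DU and 27.6, 49.1 and 23.3 with DU. The mean log2 ratio of DU over control was -0.31 with a standard error (SE) of 0.42, and the experiments differed from each other by more than DU and control did (limma, adjusted p = 0.996). With the experiment as a block the SE was 0.163 (limma, adjusted p = 0.769). On unscaled intensities the mean log2 ratio was 0.07. On the CD4+ T-cell arrays G8U was lower after DU in each experiment too, with a mean log2 ratio of -0.39 and an SE of 0.62 (limma, adjusted p = 0.891). The block gave an SE of 0.207 there (limma, adjusted p = 0.409).

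**Figure D3:**
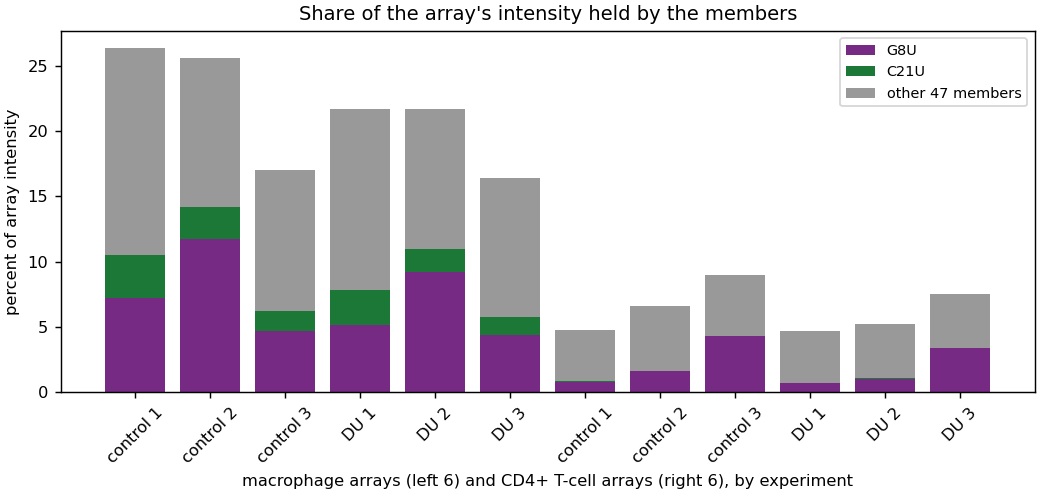
Share of the summed array intensity held by G8U, C21U and the other 47 members on each array, in percent, with bars starting at 0. The members held 16.4 to 26.3% on the macrophage arrays and 4.72 to 8.96% on the CD4+ T-cell arrays.

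In macrophages, exposure to 50 μM DU left no member past an adjusted p of 0.05. Relative to the array mean, the median log2 ratio of DU over control over the 49 members was -0.02, beside 0.05 over all 531 positions tested. Single members ranged from -0.42 to 0.68, and 22 had a mean ratio above 1 and 27 below 1. In limma 0 of 49 passed the adjusted threshold, beside 0% of all positions. At an unadjusted p under 0.05, 0 members were higher (1.69% of all positions) and 0 lower (0.377%). With the experiment as a block, 1 member was higher at an unadjusted p under 0.05 (3.95% of all positions), 0 were lower (0.753%), and again 0 members and 0% of all positions passed the adjusted threshold.

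The direction of the members was uneven over the experiments. The median log2 ratio of the members was -0.05, -0.04 and -0.08 in experiments 1, 2 and 3, while over all positions it was 0.04, 0.19 and -0.05. Members higher after DU numbered 23, 22 and 13 in these experiments. In all 3 experiments alike, 5 members were higher after DU, beside 17.1% of all positions, and 12 were lower, or 24.5%, beside 10.7%. The DU arrays lay wholly above the control arrays at 0 members (2.26% of all positions) and wholly below them at 1 (3.58%). All of the 12 but O11L had control and DU arrays whose levels overlapped.

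The balance of higher and lower members in macrophages depended on the scaling. Members with a mean ratio above 1 numbered 22 after division by the array mean, 10 after division by the array median, 12 after quantile normalization and 45 on unscaled intensities. Over all positions the median log2 ratio was 0.05, -0.07, -0.03 and 0.44 in the same order, and the members' median was -0.02, -0.15, -0.13 and 0.36. The members' median was 0.08 below that of all positions with the array mean, the array median and no scaling. Those scalings shift all positions of a column alike, so their equal gap was fixed in advance. After quantile normalization the members' median was 0.10 below, and a direction relative to 0 cannot be read from the arrays alone.

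**Figure D4:**
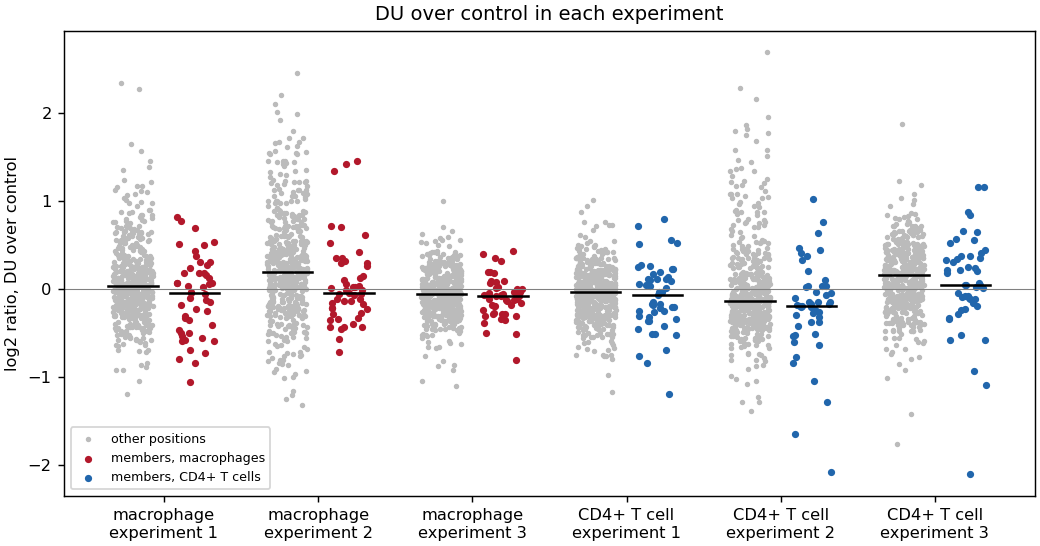
Log2 ratio of DU over control in each experiment for the 49 members (red in macrophages, blue in CD4+ T cells) and for the other positions (gray). Black lines mark the median of the members and, over the gray points, that of all positions with values, which was 0.19 in macrophage experiment 2 where the members' median was -0.04.

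The members with the smallest unadjusted p in macrophages were H14U and C7U above a ratio of 1 and O11L and C2U below it. None passed the adjusted test. H14U had levels of 0.118, 0.135 and 0.298 times the array mean without DU and 0.208, 0.194 and 0.370 with DU. It was higher after DU in each experiment, but the DU values of experiments 1 and 2 lay below the control of experiment 3. The mean log2 ratio was 0.55 with an SE of 0.43 (limma, adjusted p = 0.996). With the experiment as a block the SE was 0.175 (limma, unadjusted p = 0.0245, adjusted p = 0.769), and H14U was the 1 member counted as higher there.

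C2U was at 1.21, 1.12 and 0.746 times the array mean without DU and at 0.75, 0.920 and 0.614 with DU, with a mean log2 ratio of -0.42 and an SE of 0.29 (limma, adjusted p = 0.996). O11L was at 0.103, 0.0910 and 0.0859 without DU and 0.0576, 0.0725 and 0.0810 with DU. At O11L every DU array lay below every control array, the only member in macrophages with such a separation. Its mean log2 ratio was -0.42 with an SE of 0.25 (limma, adjusted p = 0.996), and its level over the lowest intensity of the same array had a median of 2.43 on the macrophage arrays.

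J19U had the largest mean log2 ratio of any member in macrophages, 0.68, with an SE of 1.02, and was singled out for that after its values were seen. With the experiment as a block the SE of J19U was 0.288 (limma, adjusted p = 0.769). Its level was 0.0937, 0.0627 and 0.651 times the array mean without DU and 0.106, 0.172 and 0.856 with DU. Both arrays of experiment 3 were several times above the others, and the experiments differed by more than DU and control did. Both arrays of experiment 1 lay above the other 4 macrophage arrays at 15 members (10.7% of all usable positions) and below them at 0 (10.1%). Both arrays of experiment 2 lay above the others at 2 members (2.34%) and below them at 10 (14.4%). Both arrays of experiment 3 lay above the others at 9 members (48.7%) and below them at 16 (8.38%). The experiment means differed 2-fold or more at 9 members (23.2%). Across the 49 members the log2 ratios of experiments 2 and 3 had a Pearson correlation of 0.417, those of experiments 1 and 2 of -0.06 and those of experiments 1 and 3 of -0.05, described without a test because members share arrays.

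In CD4+ T cells, exposure to 100 μM DU also left no member past an adjusted p of 0.05 without the block. The median log2 ratio of the members was -0.04, beside 0.03 over the 529 positions tested, with a range from -1.45 to 0.57, and 23 members had a ratio above 1 and 26 below 1. In limma 0 of 49 passed the adjusted threshold, beside 0% of all positions. At an unadjusted p under 0.05, 0 members were higher (2.27% of all positions) and 3 were lower, or 6.12%, beside 2.46%. With the experiment as a block, 2 were higher (7.56%) and 7 lower, or 14.3%, beside 5.48%. With that block 1 member, C7U, passed the adjusted threshold, or 2.04%, beside 1.7% of all positions.

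The experiments differed here as well. The members' median log2 ratio was -0.07, -0.20 and 0.05 in experiments 1, 2 and 3, while that of all positions was -0.04, -0.13 and 0.16. In all 3 experiments 7 members were higher after DU (15.3% of all positions) and 13 were lower, or 26.5%, beside 17.3%. The DU arrays lay wholly above the controls at 1 member (4.27%) and wholly below them at 5, or 10.2%, beside 5.63%.

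C7U had the mean ratio farthest from 1 of any member in CD4+ T cells, where it lies near the bottom of the intensity range. Its level was 0.0127, 0.0135 and 0.0167 times the array mean in the controls and 0.00555, 0.00651 and 0.00387 after DU. These correspond to mean intensities of 6076, 6981 and 4026 without DU and 2188, 3884 and 1278 with it. Every DU array lay below every control array. The mean log2 ratio was -1.45 with an SE of 0.24 (limma, adjusted p = 0.0690), and with the experiment as a block the adjusted p was 0.000158. The block result rested on experiment 3, since without that pair of arrays the log2 ratio was -1.12 and the adjusted p 0.474. It also depended on the scaling: after quantile normalization the log2 ratio was -0.14 (adjusted p = 0.875, and 0.796 with the block), and after division by the array median it was -1.45 (adjusted p = 0.418, and 0.390 with the block). In macrophages the same position had levels of 0.125, 0.0880 and 0.0917 without DU and 0.151, 0.118 and 0.0927 with DU. There the mean log2 ratio was 0.24 with an SE of 0.29 (limma, adjusted p = 0.996).

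H7L, the other member named below a ratio of 1 in CD4+ T cells, was at 0.168, 0.184 and 0.125 times the array mean in the controls and 0.117, 0.0755 and 0.107 with DU. All DU arrays were below all controls, with a mean log2 ratio of -0.68 and an SE of 0.24 (limma, adjusted p = 0.881). In macrophages H7L differed mainly between experiments, at 1.70, 0.930 and 3.06 without DU and 0.814, 1.52 and 4.11 with DU, with a mean log2 ratio of 0.02 and an SE of 0.65.

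N19U and M2L had the smallest unadjusted p above a ratio of 1 in CD4+ T cells. N19U was at 0.133, 0.100 and 0.0684 times the array mean without DU and 0.155, 0.126 and 0.153 with it. Its mean log2 ratio was 0.57 with an SE of 0.26 (limma, adjusted p = 0.881), and the DU array of experiment 2 lay below the control of experiment 1. M2L was at 0.0284, 0.0363 and 0.0218 without DU and 0.0406, 0.0419 and 0.0344 with it, with 1 DU array below the highest control. Its mean log2 ratio was 0.46 with an SE of 0.24 (limma, adjusted p = 0.881).

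**Figure D5:**
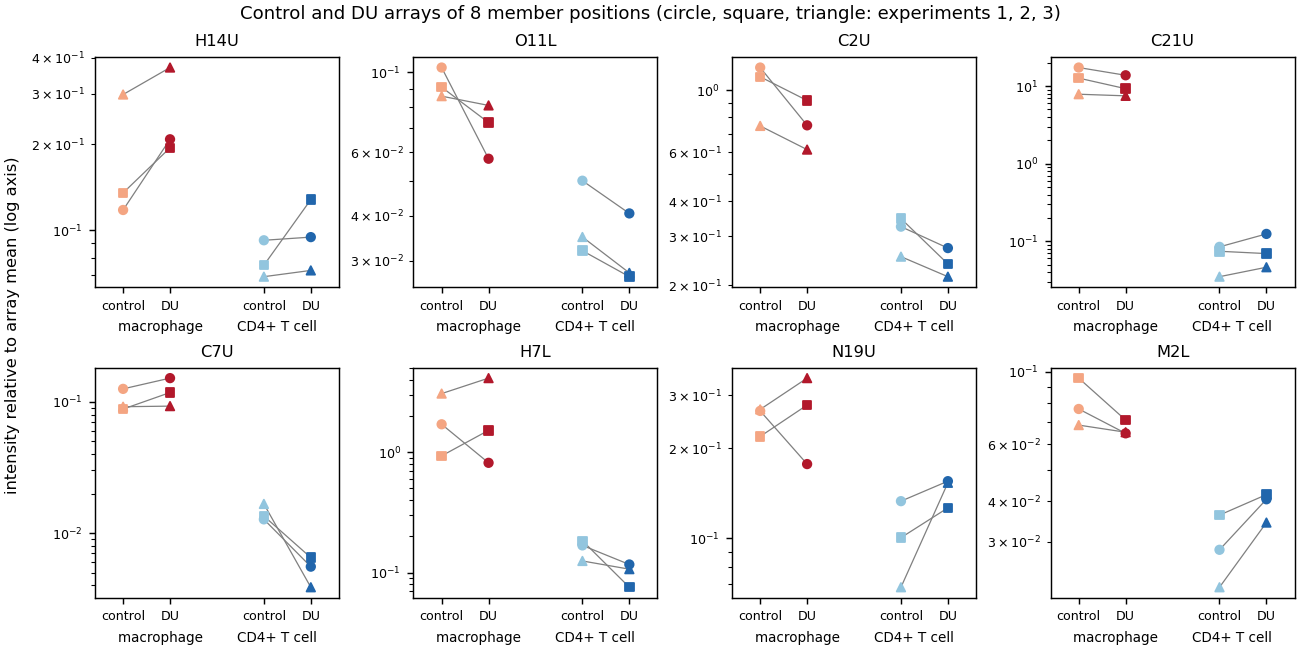
Level of 8 members on the control and DU arrays of each experiment, as intensity divided by the array mean (log axes with different ranges), with lines joining the arrays of an experiment. C7U and H7L were lower on every DU array than on every control array in CD4+ T cells, and O11L was so in macrophages.

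The doses differed between the cell types, so the DU ratios are set side by side, and the interaction term, the log2 ratio in CD4+ T cells minus that in macrophages, joins cell type and dose. In limma 0 members passed the adjusted threshold, beside 0% of all positions. At an unadjusted p under 0.05, 1 member differed, beside 1.51%, and with the block 3 did, or 6.12%, beside 5.29%. C7U had the largest difference, -1.69 with an SE of 0.39 (limma, adjusted p = 0.384), and after quantile normalization it was -0.35. The others named by the rule were I10L at -0.72 with an SE of 0.39, M2L at 0.71 with an SE of 0.34 and D6L at 0.63 with an SE of 0.47, and their adjusted p was 1.00 in each case.

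The mean ratios of the members lay on the same side of 1 in both cell types for 28 of the 49. The share over all positions is not given for this count, so it is not read as a trait of the members. The Pearson correlation of the mean ratios was 0.03 over the members and 0.21 over all positions, without a test because the positions share arrays. Relative to the array mean, the direction was the same in all 6 experiments at 7 members, or 14.3%, beside 6.02% of all positions: C2U, G5L, G8U, H4U and O11L were lower after DU, and H14U and H19U were higher. The direction was opposite throughout at 2 members, or 4.08%, beside 3.3%: C7U and M2L. These lists depended on the scaling. The same direction throughout was seen at 6 members with median scaling (6.21% of all positions) and at 6 after quantile normalization (5.63%). On unscaled intensities it was seen at 1 (2.52%). M2L was opposite throughout under the array mean alone, and C7U was also so with median scaling and without scaling but not after quantile normalization. Those not named by the rule were chosen after their values were seen.

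C2U, which the rule names, was lower after DU in all 6 experiments after division by the array mean, by the array median or quantile normalization, but not on unscaled intensities, and it passed no test in either cell type. On the CD4+ T-cell arrays it was at 0.325, 0.347 and 0.254 times the array mean without DU and 0.272, 0.239 and 0.215 with it. The mean log2 ratio was -0.34 with an SE of 0.21 (limma, adjusted p = 0.881), next to -0.42 in macrophages.

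The precision limits what could be seen. Macrophage ratios of single members had a median SE of 0.31 on the log2 scale, or 0.18 with the experiment as a block, and CD4+ T-cell ratios had 0.24, or 0.21 with the block. Duplicate spots of the members differed by a median of 3.79 to 6.64% on the 12 arrays, and the duplicates were averaged and not counted as replicates. The array means ranged from 88701 to 406816 in macrophages and from 241379 to 596701 in CD4+ T cells.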

How the data were processed

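Per the paper's methods, membranes hybridized with 33P-labeled cDNA were read on a phosphoimager and quantified in ArrayVision. The authors deposited linear spot intensity values, 1 column for each of the 2 duplicate spots of 12 arrays, and these were not yet normalized from array to array. The sources used here do not say if background was already removed from them. Groups came from the sample labels, and all 24 columns were mapped. Values of 0 were set to missing, columns were scaled to their own mean, and the log2 values of duplicate spots were averaged. Two-sided tests used limma 3.58.1 under R 4.3.3 (lmFit, then eBayes) on every position with at least 2 experiments per condition, with Benjamini-Hochberg adjustment over all of them and a threshold of 0.05, for each cell type on its own and by an interaction term over the 4 groups. The methods' ArrayStat Z-test on background-subtracted values was approximated only as an alternative, and outlier removal was not repeated.

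Control and DU arrays of the same experiment number deviated together, with correlations over all positions of 0.413, 0.261 and 0.850 for the macrophage pairs and 0.541, 0.270 and 0.453 for the CD4+ T-cell pairs. The study's methods describe fresh cells for each repeat. Results with the experiment as a block are printed wherever they alter a call or a count.

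The members, lists and alternatives were chosen with earlier results of these data known. Named are the 5 most selective members, the 3 positions on either side of the threshold, and in each fit the 2 members in each direction with the smallest unadjusted p, or past the threshold with the block. Precision is limited by having 3 arrays in a group. The scripts were tested on simulated data. The alternatives were other scalings, zeros set to the lowest value, single duplicate spots, leaving out the dimmest 25% of positions, the block, a Z-test on a pooled curve of spread, 1 fit over the 4 groups, and leaving out each array. Subtracting the lowest intensity, the block with another scaling and the block without 1 pair were added after the values were seen. Cell death, proliferation and RT-PCR data were not analysed here.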

Additional observations from a re-analysis of the deposited data

Results flagged for a closer look

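Relative to the array mean, C7U and M2L had opposite directions in the cell types in every experiment, which held for C7U also with median scaling and on unscaled intensities but not after quantile normalization, and for M2L under no other scaling, and the difference itself was tested by the interaction term. At C7U the log2 ratio of DU over control was 0.27, 0.42 and 0.02 in macrophages, while CD4+ T cells gave -1.20, -1.05 and -2.11. The difference was -1.69 (limma, adjusted p = 0.384), which did not pass. At M2L the log2 ratios were -0.25, -0.43 and -0.07 in macrophages, while CD4+ T cells gave 0.52, 0.21 and 0.66, a difference of 0.71 (limma, adjusted p = 1.00). Such opposition was seen at 17 of the 515 positions with values in all experiments.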

How the results depend on the processing

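The number of positions that met the rule was 49, and it was 78 with median scaling, 16 with no scaling and 29 without the dimmest 25% of positions, while leaving out 1 array gave 48 to 54. No member passed the adjusted test in macrophages under any of the 24 alternatives. The members' median log2 ratio in macrophages, -0.02, was 0.36 on unscaled intensities, -0.15 with median scaling, -0.13 after quantile normalization, -0.0491 and -0.0462 on duplicate spots 1 and 2 alone and 0.0186 with the lowest intensity subtracted. Leaving out 1 array moved it between -0.15 (without the DU array of experiment 1) and 0.0497 (without the control array of experiment 1). In CD4+ T cells the median, -0.04, stayed between -0.13 and 0.04. The cause of these shifts was not tested.

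In CD4+ T cells, 1 member passed with the replicate block, with the block on unscaled intensities and with the block without experiment 2, and 2 passed with the block and the lowest intensity subtracted (C7U and G6L) or without experiment 1 (C7U and E13U). G6L and E13U lay at a median of 3.06 and 1.19 times the lowest intensity of the array there. Beyond the plain block, the share of all positions that passed is not given. The replicate block changed no other adjusted call of a member under the array-mean scaling. Leaving out 1 array without the block gave 0 to 1: C7U passed without the DU array of experiment 1 (adjusted p = 0.0417) or 2 (adjusted p = 0.0452). The adjusted p of C7U over its 23 alternatives ran from 1.05e-07 to 1.00. For the interaction, 1 member, C7U, passed in the Z-test (adjusted p = 0.00131) and with the block on unscaled intensities (adjusted p = 0.0425), and leaving out 1 array gave 0. No log2 ratio named for its small p changed its sign under any alternative run. Of the other printed ratios, none of which passed a test, that of G8U in macrophages (-0.31) became 0.0726 on unscaled intensities, with or without the block, and ran from -0.63 to 0.0269 with 1 array left out. In CD4+ T cells G8U (-0.39) ran from -1.03 to 0.231, turning above 0 without the control array of experiment 3 (0.231) or the DU array of experiment 1 (0.0676). J19U in macrophages (0.68) ran from -0.21 to 1.71, and was below 0 without the DU array of experiment 3. H7L in macrophages (0.02) was -0.102 with median scaling and -0.132 after quantile normalization, each also with the block, and -0.318 and -0.179 with the block without experiment 2 or 3. With 1 array left out H7L ran from -0.607 to 0.561, and it was -0.409 without the control array of experiment 2. In macrophages 12 members were lower after DU in all 3 experiments with the array mean (10.7% of all positions). The count was 16 with median scaling, 14 after quantile normalization and 0 on unscaled intensities, where no share of all positions is given. The median over all positions moved too, from 0.05 to -0.07, -0.03 and 0.44, so these counts are not read as a trait of the members. E13U lay at a median of 1.19 times the lowest intensity of its array in CD4+ T cells, so the size of its difference between the cell types is uncertain.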
